A study of Mus musculus with 8 samples.

Results

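The genes described here are 10 components of the canonical WNT pathway, measured in mouse E14 embryonic stem cells after knockdown of Cct5 or Cct7, which encode subunits of the cytosolic chaperonin CCT. They are Ctnnb1, which encodes beta-catenin, the TCF/LEF factor genes Tcf7, Tcf7l1, Tcf7l2 and Lef1, and the target genes Axin2, Nkd1, Rnf43, Sp5 and Cdx1. The genes were taken from a fixed list by symbol, and all 10 were found among the 19896 Ensembl gene IDs present in both deposited tables. The question behind the study is whether these subunits keep pluripotent cells from becoming totipotent. The data are 8 poly(A) RNA libraries, made up of 4 groups of 2.

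All 4 groups were E14 cells infected with a virus carrying a doxycycline-inducible vector with puromycin resistance and grown mainly in medium with serum and LIF. Puromycin (0.5 µg/ml) was kept on the cells for 14 days, and doxycycline (2 µg/ml) was then added for 2 days. The groups named Cct5 KD and Cct7 KD carried a short hairpin RNA against Cct5 or against Cct7. Their controls, named Cct5 KD Ctr and Cct7 KD Ctr, carried the vector with no hairpin and received the same doxycycline. Positive clones were picked, but the number of clones and of hairpins behind a group is not stated. Nor is it stated whether the 2 libraries of a group are separate cultures, so p-values measure only the spread between these libraries, which may be technical.

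When no WNT ligand is bound, a cytoplasmic complex built on AXIN and APC marks beta-catenin for destruction. Ligand binding to Frizzled and LRP receptors stops that complex, and beta-catenin then enters the nucleus and joins DNA-bound TCF/LEF proteins to switch on target genes. In mouse embryonic stem cells TCF7L1 acts mainly as a repressor of pluripotency genes, while TCF7 and LEF1 act mainly as activators. Several targets feed back on the pathway: AXIN2 rebuilds the destruction complex, NKD1 binds Dishevelled, RNF43 removes Frizzled receptors from the membrane, and SP5 is a transcription factor that dampens other TCF targets. CDX1 is a homeobox factor of posterior patterning, known to respond to both WNT and retinoic acid.

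The control regions of feedback targets are shown here because TCF/LEF proteins reach these genes through short DNA sites. Promoter windows from RefSeq (GRCm38.p6, 250 bases before to 50 after a transcript start) were matched by symbol for 9 of the 10 genes, in 16 windows; Cdx1 was not matched. The TCF/LEF core motif was searched on both strands as CTTTG followed by 2 letters that are each A or T, allowing overlaps. The 250 bases before the start of Sp5 (chr2:70474673-70474922, plus strand), Axin2 (chr11:108920099-108920348, plus strand) and Nkd1 (chr8:88527383-88527632, plus strand) follow, 5′ to 3′, with matches in capitals.
Sp5: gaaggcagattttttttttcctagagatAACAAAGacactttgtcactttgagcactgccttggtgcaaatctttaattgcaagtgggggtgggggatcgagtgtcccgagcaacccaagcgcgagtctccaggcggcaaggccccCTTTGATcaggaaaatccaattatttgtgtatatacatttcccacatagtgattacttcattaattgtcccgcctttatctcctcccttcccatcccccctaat
Axin2: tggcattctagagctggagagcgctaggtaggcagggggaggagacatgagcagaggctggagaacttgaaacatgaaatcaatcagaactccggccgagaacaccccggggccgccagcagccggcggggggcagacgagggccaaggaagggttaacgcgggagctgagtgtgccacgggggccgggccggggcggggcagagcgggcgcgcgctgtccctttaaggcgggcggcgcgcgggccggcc
Nkd1: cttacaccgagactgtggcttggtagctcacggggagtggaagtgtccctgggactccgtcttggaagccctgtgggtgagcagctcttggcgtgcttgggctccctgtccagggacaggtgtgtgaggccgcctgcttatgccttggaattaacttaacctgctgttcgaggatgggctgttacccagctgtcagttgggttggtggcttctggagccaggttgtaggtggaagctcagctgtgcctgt

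The Sp5 window held 2 matches, CTTTGTT on the minus strand beginning 222 bases before the start and CTTTGAT on the plus strand beginning 104 bases before it. Those of Axin2 and Nkd1 held 0, which says only that these letters are not in these windows. The RefSeq start of Nkd1 used here lies within the GENCODE gene, which begins at 88521354. One of the 4 windows of Lef1 and 1 of the 2 of Tcf7l2 held a match each. Both of these windows also lie within the GENCODE genes. That of Lef1 begins at 131156044 in a gene that begins at 131110471, and that of Tcf7l2 at 55895071 in a gene that begins at 55741820. In all, 3 of the 16 windows (18.75%) held the motif, against 5544 of 32851 windows (16.9%) over all genes, and 3 of the 9 genes against 18.9% of 27025 genes. A match is a description of sequence and not a measured binding site.

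By the GENCODE gene models on GRCm38 (mm10), the genes lie on several chromosomes. Ctnnb1 (ENSMUSG00000006932) spans chr9:120929216-120960507 on the plus strand, Tcf7 (ENSMUSG00000000782) chr11:52252371-52283014 on the minus strand, and Tcf7l1 (ENSMUSG00000055799) chr6:72626378-72789254 on the minus strand. Tcf7l2 (ENSMUSG00000024985) spans chr19:55741820-55933654 and Lef1 (ENSMUSG00000027985) chr3:131110471-131224356, both on the plus strand. Axin2 (ENSMUSG00000000142) spans chr11:108920349-108950783, Nkd1 (ENSMUSG00000031661) chr8:88521354-88594884, Rnf43 (ENSMUSG00000034177) chr11:87662722-87735539 and Sp5 (ENSMUSG00000075304) chr2:70474923-70477729, all on the plus strand. Cdx1 has the ID ENSMUSG00000024619. Values belong to whole genes, so transcript forms such as the short forms of Tcf7 and Lef1 that lack the beta-catenin binding end cannot be told apart. Annotated genes overlap 8 of the 9 genes given with a position (Sp5 has 0), among them Ulk4 and 4930593C16Rik opposite Ctnnb1 and Gm11670 opposite Axin2. The libraries were strand-specific, but whether counting used the strand is not given, so reads of opposite-strand partners may be included.

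Values are FPKM (fragments mapped, scaled by transcript length and by library depth) as deposited by the authors. From the step between low values, the FPKM denominators were 18.9 to 54.7 M fragments in the control and Cct7 KD libraries, and none could be found for Cct5 KD. The reason is a relation in the tables: 9/8 of the Cct7 KD value with the matching number is contained in each Cct5 KD value, and what is left, called the remainder here, is never negative except in 15 genes, none of them among the 10. Cct5 KD is therefore not independent of Cct7 KD, and each Cct5 KD result is given with that of the remainder, whose own values had a step (52.9 and 56.1 M fragments). The origin of this relation is not stated. Cct7 was 269 and 280 FPKM in its controls and 14.4 and 17.8 in Cct7 KD, and Cct5 was 368 and 367 in its controls and 70.8 and 73.4 in Cct5 KD. Cct5 itself is among the 15 exceptions: 9/8 of its Cct7 KD values (280 and 271 FPKM) would be 315 and 305, far above its Cct5 KD values. The summed level of 7 stem cell markers was 4412 to 4626 FPKM in the controls, 997 to 1004 in Cct7 KD and 2231 to 2235 in Cct5 KD, and Hprt separated the same libraries (159 to 163 FPKM in controls, 0.781 to 1.44 in knockdowns). These differences cannot be told apart from knockdown in this design.

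Markers of other cell types were summed in the same way. Trophoblast markers (7 of 8 in both tables) were at 50.8 to 54.4 FPKM in the controls, 218 to 221 in Cct7 KD and 256 to 260 in Cct5 KD, led by Krt8 and Krt18, while Elf5 lay between 0.124 and 0.342 in the 8 libraries. Other markers of that list went the other way: with the Cct7 hairpin Tfap2c was 10.5 and 11.5 FPKM against 27.1 and 26.1 in its controls, Eomes 1.04 and 0.931 against 1.66 and 1.43, and Gata3 0.103 and 0.0972 against 0.292 and 0.307. Primitive endoderm markers (8 of 8) were at 23.5 to 26.0 in controls, 30.3 to 31.4 in Cct7 KD and 41.4 to 42.7 in Cct5 KD. Streak and mesoderm markers (6 of 8) were at 3.58 to 4.00 in controls, 3.49 to 3.64 in Cct7 KD and 4.34 to 4.57 in Cct5 KD. Neural markers (6 of 6) were at 21.4 to 23.9, 23.0 to 23.2 and 31.8 to 32.2 FPKM in the same order, and fibroblast markers (4 of 8) at 10.3 to 11.1, 11.8 to 12.3 and 17.2 to 17.9. These sums too held genes that moved apart with the Cct7 hairpin. Map2 was 7.99 and 7.95 FPKM against 2.11 and 1.86 in the Cct7 KD controls, and Tubb3 9.27 and 9.75 against 14.5 and 15.4. Among the fibroblast markers, Pdgfrb was 5.38 and 5.81 against 1.39 and 1.51, and Thy1 4.91 and 5.13 against 8.07 and 8.80. Among the endoderm markers, Gata6 was 1.77 and 2.42 against 0.678 and 0.756, and Lama1 5.81 and 5.94 against 8.33 and 8.18. Hand1, of the streak and mesoderm list, was 1.65 and 1.70 against 1.16 and 1.19, while Eomes, also on that list, was lower. Total FPKM was 745912 and 744177 in Cct5 KD against 495553 and 496684 in its controls. The marker sums were not scaled for that difference. No listed marker was at 0 in every library. The part of these cell-type differences in the results that follow was not tested.

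Changes are differences in log2(FPKM + 1) between a knockdown and its own control, from limma, called at a Benjamini-Hochberg adjusted p under 0.05 over all genes whose mean reached 1 FPKM in the libraries compared. This scale understates the change of genes near 0. Most genes were called: 81.4% of 13588 in Cct7 KD (49.3% higher, 32% lower) and 89.3% of 14179 in Cct5 KD (78% higher, 11.3% lower). The median gene moved by 0.15 in Cct7 KD and by 0.68 in Cct5 KD. After median-of-ratios scaling these medians were -0.07 and -0.05, and the share of calls that were higher went from 60.6% to 45.7% in Cct7 KD and from 87.3% to 46.3% in Cct5 KD. Changes of the 10 genes are therefore also given after that scaling; for other genes of the pathway the scaled value is given where it changes a call or direction or differs by over 1.5 times. In bulk RNA, fewer cells of a type and less RNA per cell cannot be told apart.

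Cct7 KD cells had less transcript of 3 TCF/LEF factors and more of the targets Cdx1 and Nkd1 than their controls. Lef1 was 8.27-fold lower, Tcf7 2.01-fold and Tcf7l1 1.58-fold lower, whereas Cdx1 was 41.7-fold and Nkd1 2.11-fold higher as ratios of mean FPKM (n = 2 each). Ctnnb1 moved little and Axin2, the most used readout of the pathway, was not called. Of the 8 genes that passed the filter, 3 were called higher (against 49.3% of all genes), 3 lower (against 32%) and 2 were not called, so 6 of 8 were called, a share not above the 81.4% of all genes. After median-of-ratios scaling, 2 were higher (37.1% of all genes), 3 lower (44%) and 3 not called (81% of all genes called in either direction). Lef1 passed the filter only through the controls and Cdx1 only through the knockdown, which fixes their directions in these counts.

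**Figure D1:**
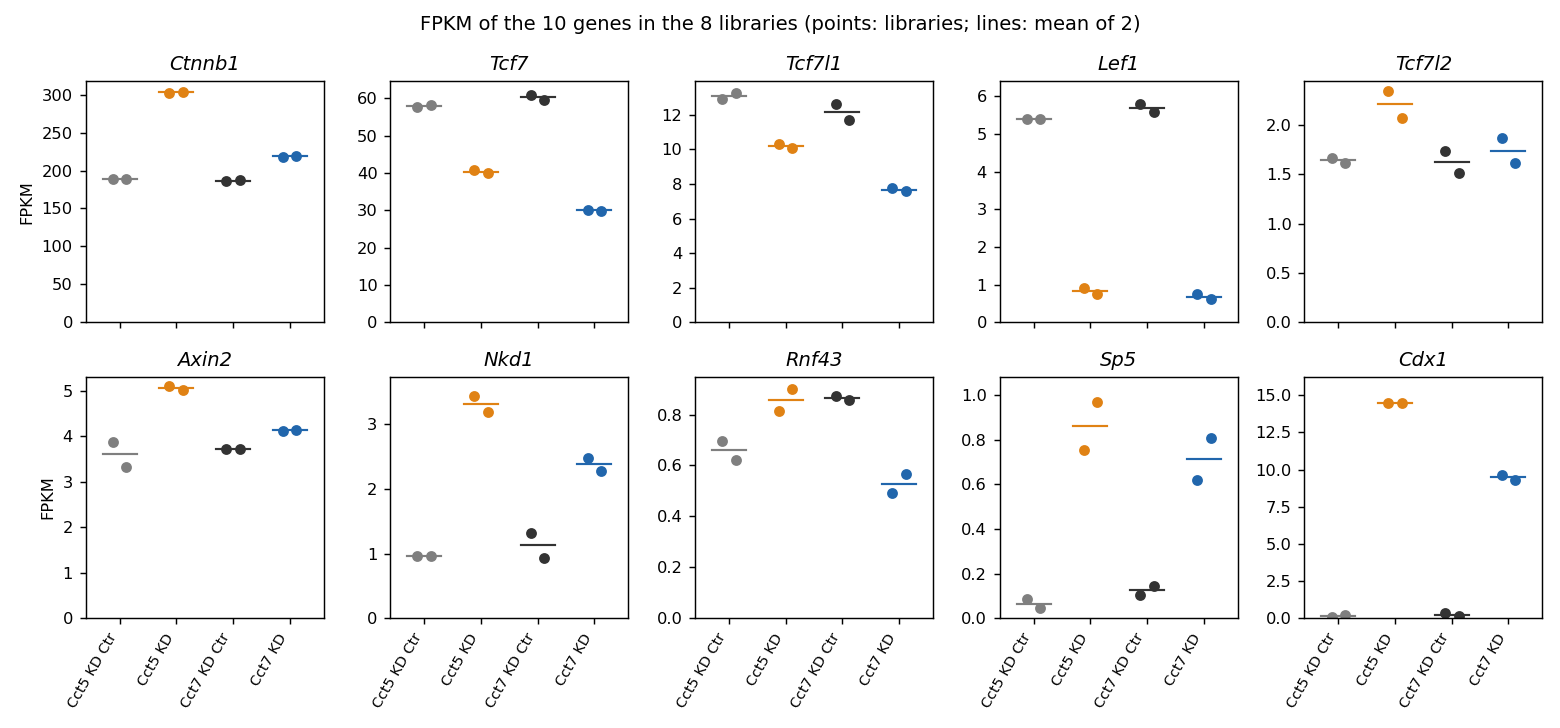
FPKM (vertical axes, each from 0) of the 10 genes in the 8 libraries, with points for libraries and lines for the mean of 2. Lef1 lay above 5.4 in the 4 control libraries and under 0.91 in the 4 knockdown libraries, and Cdx1 lay under 0.34 in the controls and above 9.3 in the knockdowns.

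Beta-catenin mRNA was abundant throughout. Ctnnb1 was 186.0 and 186.9 FPKM in Cct7 KD Ctr, and the knockdown libraries had 218 and 219. Both knockdown libraries were above both controls, at a ratio of means of 1.17. The change of 0.23 (SE 0.0237) passed the test (limma adjusted p = 0.00032), but it was -0.02 and not called after median-of-ratios scaling (limma adjusted p = 0.45). Protein level and nuclear entry of beta-catenin, at which the pathway is mainly regulated, were not measured.

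Tcf7, the most abundant of the 4 factor genes, was 60.9 and 59.6 FPKM in the Cct7 KD Ctr libraries against 30.2 and 29.9 in the knockdown. The groups did not overlap, and the change was -0.98 (SE 0.0284, limma adjusted p = 4.3e-06), or -1.23 after median-of-ratios scaling. Tcf7l1, the repressor, was 12.6 and 11.7 FPKM in the control and 7.77 and 7.57 in the knockdown. It fell by 0.60 on the log2 scale (SE 0.0542, limma adjusted p = 0.00019) and its scaled change was -0.83.

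Lef1 fell furthest of the 10. It was 5.78 and 5.58 FPKM in the controls and 0.760 and 0.615 in the knockdown, a change of -1.99 (SE 0.0807, limma adjusted p = 1.1e-05) and of -2.14 after scaling. Its change was the 137th lowest of 13588. Lef1 passed the filter only through the controls, which fixes its direction there. Without the filter, where 24.9% of genes were called lower, its change was also -1.99 (limma adjusted p = 3.6e-05). Tcf7l2, the least abundant of the 4 factors in the controls, was 1.73 and 1.51 FPKM in the control and 1.86 and 1.61 in the knockdown. These values overlapped, and the change of 0.06 (SE 0.0950) was not called (limma adjusted p = 0.56); after scaling it was -0.09, also not called.

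The make-up of the TCF/LEF transcripts differed between knockdowns and controls. Summed over the 4 genes, FPKM reached 77.7 and 78.5 for the Cct5 KD controls and 81.1 and 78.4 for those of Cct7 KD; they were 40.6 and 39.6 in Cct7 KD and 54.3 and 52.8 in Cct5 KD. Tcf7 kept 74.2% to 76.1% of the sum in the 8 libraries. Lef1 made up 6.88% to 7.13% in controls and 1.41% to 1.87% in knockdowns, while Tcf7l2 made up 1.92% to 2.14% and 3.91% to 4.59%, and Tcf7l1 14.9% to 16.9% and 19.0% to 19.1%. The ratio of the summed factors to Ctnnb1, which does not depend on the scaling of a library, was 0.412 to 0.436 in controls and 0.174 to 0.186 in knockdowns. Controls and knockdowns did not overlap in that ratio, but each Cct5 KD value contains 9/8 of the Cct7 KD value, so the knockdowns are not independent. In the remainder Tcf7 made up 78.2% and 77.0% of the sum, and Tcf7l1 18.3% and 19.2%. Lef1 made up 0.617% there in both replicates and Tcf7l2 2.83% and 3.14%. The ratio to Ctnnb1 in the remainder was 0.151 and 0.144. With 2 libraries against 2 no exact permutation test can reach a p under 0.05, and none was run.

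**Figure D2:**
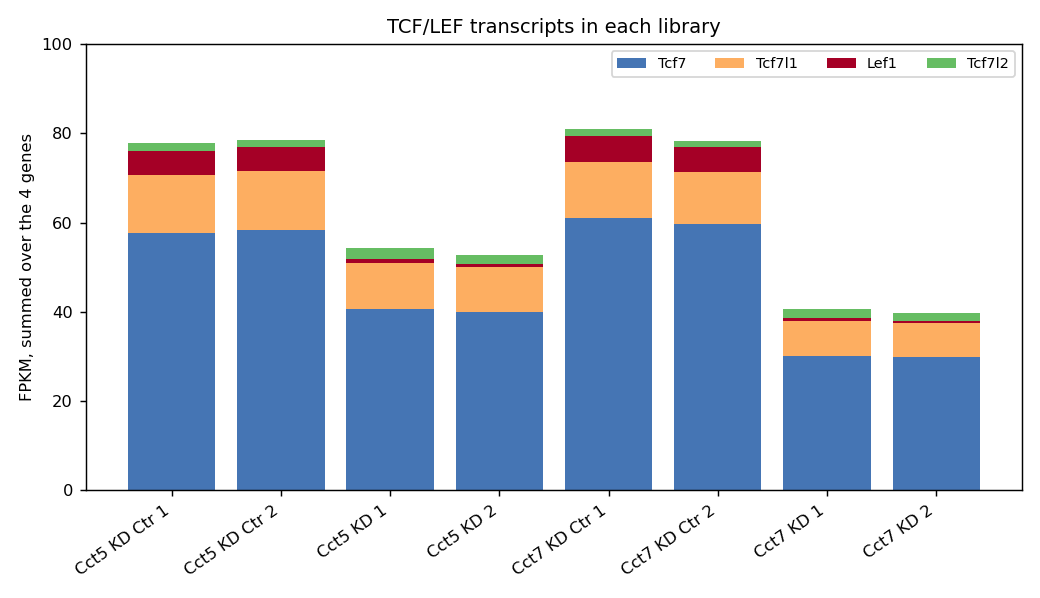
Summed FPKM of Tcf7, Tcf7l1, Lef1 and Tcf7l2 (vertical axis, from 0) in each of the 8 libraries, 1 stacked bar for each. The controls reached 77.7 to 81.1 and the Cct7 KD libraries 39.6 and 40.6, with Lef1 thinning from about 7% of a bar to under 2%.

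Among the feedback targets, the 3 membrane and cytoplasmic regulators did not move together. Axin2 was 3.72 FPKM in both libraries of Cct7 KD Ctr, against 4.12 and 4.13 in Cct7 KD. Although the groups did not overlap, the change of 0.12 (SE 0.0599) was not called (limma adjusted p = 0.11), and it was -0.08 after median-of-ratios scaling. Nkd1 was 1.33 and 0.933 FPKM in the control and 2.47 and 2.29 in the knockdown, a change of 0.67 (SE 0.115, limma adjusted p = 0.0027) and of 0.52 after scaling.

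Rnf43 was 0.872 and 0.856 FPKM in the Cct7 KD controls, against 0.491 and 0.565 with the hairpin, under the filter. Without the filter and without scaling, where 68.5% of 20897 genes were called (43.6% higher, 24.9% lower), it fell by 0.29 on the log2 scale (SE 0.0702, limma adjusted p = 0.016). With median-of-ratios scaling and no filter, where 67.5% were called (33.9% higher, 33.7% lower), the change was -0.39 (limma adjusted p = 0.0052).

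The transcription factor targets were both higher. Sp5 was 0.106 and 0.143 FPKM in the Cct7 KD controls, against 0.619 and 0.807 with the hairpin, also under the filter. These values stand for 5 and 7 fragments in the controls and 27 and 32 in the knockdown, a pooled ratio of 5.66 (95% exact interval 3.01 to 11.6, for counting error only). Without the filter its change was 0.60 (SE 0.0766, limma adjusted p = 0.0014), and 0.54 with scaling. Sp5 thus stayed below 1 FPKM in every library.

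Cdx1 was 0.332 and 0.123 FPKM in Cct7 KD Ctr, which is 13 and 5 fragments, and 9.62 and 9.32 in Cct7 KD, which is 350 and 308 fragments. The pooled ratio was 42.1 (95% exact interval 26.4 to 71.5, for counting error only). The change was 3.10 (SE 0.103, limma adjusted p = 6.0e-06), the 43rd highest of 13588, and 2.96 after scaling. Cdx1 passed the filter only through the knockdown libraries. Rarb, a direct target of retinoic acid receptors named after its values were seen, moved with Cdx1, from 0.0632 and 0.121 FPKM to 26.9 and 26.2. The part of retinoic acid signalling in the Cdx1 result was not tested.

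**Figure D3:**
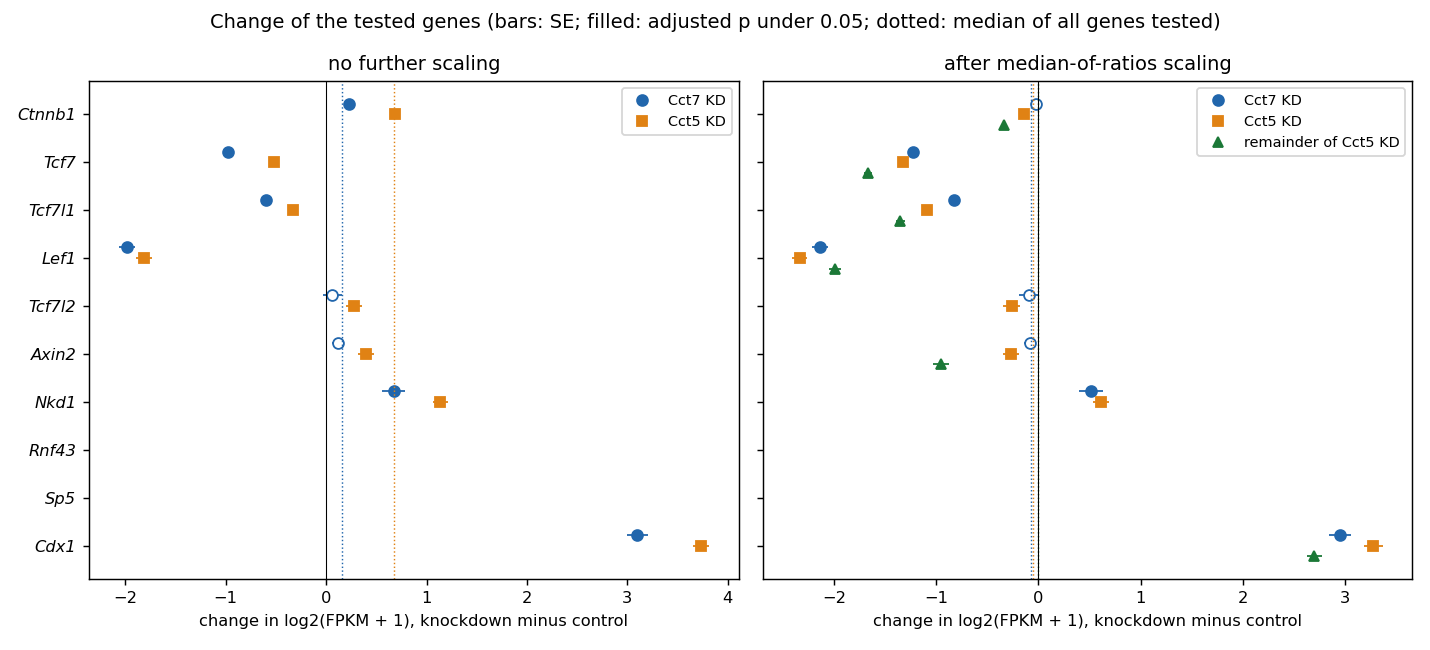
Change in log2(FPKM + 1), knockdown minus control, of the tested genes (horizontal axes; bars are SE, filled points passed an adjusted p under 0.05, dotted lines are the median of all genes tested), without further scaling on the left and after median-of-ratios scaling on the right. Tcf7, Tcf7l1 and Lef1 lie left of 0 and Cdx1 right of 0 in both panels, while Ctnnb1 changes side with scaling; genes without a point were under the filter.

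In Cct5 KD the same 8 genes were tested and all 8 were called, 5 higher and 3 lower, against 89.3% of all genes (78% higher, 11.3% lower). Nkd1 and Cdx1 passed the filter only through the knockdown and Lef1 only through the controls, which fixes their directions in these counts. Tcf7 was 57.8 and 58.3 FPKM in Cct5 KD Ctr and 40.7 and 39.9 in Cct5 KD (change -0.52). Tcf7l1 was 12.9 and 13.3 FPKM in the control and 10.3 and 10.1 in the knockdown (-0.33). Lef1 was 5.40 in both controls and 0.908 and 0.743 in the knockdown (-1.81), so it passed the filter only through the controls. Tcf7 and Tcf7l1 were lower although most transcripts were listed higher in Cct5 KD. Without the filter, where 10.4% of genes were called lower, the Lef1 change was also -1.81 (limma adjusted p = 1.9e-05).

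Cdx1 was 0.0940 and 0.242 FPKM in Cct5 KD Ctr, each standing for 9 fragments, and 14.5 in both Cct5 KD libraries (change 3.73), so that it again passed the filter only through the knockdown. Nkd1 was 0.963 and 0.962 in the control and 3.44 and 3.19 in the knockdown (1.135), so that it too passed only through the knockdown. Ctnnb1 was 189 in both controls and 303 and 304 in Cct5 KD (0.68, equal to the shift of the median gene), and Axin2 was 3.87 and 3.33 against 5.09 and 5.01 (0.40). Tcf7l2 was 1.66 and 1.61 against 2.34 and 2.07 (0.28, limma adjusted p = 0.018). After median-of-ratios scaling, Ctnnb1 (-0.14), Axin2 (-0.27) and Tcf7l2 (-0.26) were called lower, so that 2 genes were higher and 6 lower, against 81.4% of all genes called (37.7% higher, 43.7% lower). The filter again fixed the directions of Cdx1 and Lef1. The scaled changes of Tcf7, Tcf7l1 and Lef1 were -1.33, -1.09 and -2.34, and those of Nkd1 and Cdx1 0.61 and 3.28.

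Sp5 and Rnf43 were again under the filter. Sp5 was 0.0870 and 0.0449 FPKM in Cct5 KD Ctr (10 and 2 fragments) and 0.756 and 0.971 in Cct5 KD. Without the filter, where 76.7% of genes were called (66.3% higher, 10.4% lower), its change was 0.80 (limma adjusted p = 0.00035). With scaling and no filter, where 67.5% were called (33.4% higher, 34.1% lower), it was 0.60. Rnf43 was 0.695 and 0.623 FPKM in the control and 0.813 and 0.899 in Cct5 KD, and was not called (0.16 without scaling, limma adjusted p = 0.082, and -0.19 with it, limma adjusted p = 0.056).

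The part of these Cct5 KD values that repeats Cct7 KD was large for every gene. It made up 93.2% and 94.1% of the Lef1 value and 92.1% and 93.5% of the Sp5 value in the 2 replicates. It was 67.9% and 70.7% for Rnf43 and 72.3% and 74.6% for Cdx1, the lowest shares of the 10. For Ctnnb1, Tcf7, Tcf7l1 and Nkd1 it lay between 80.6% and 84.7%, and for Axin2 and Tcf7l2 between 87.5% and 92.7%.

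**Figure D4:**
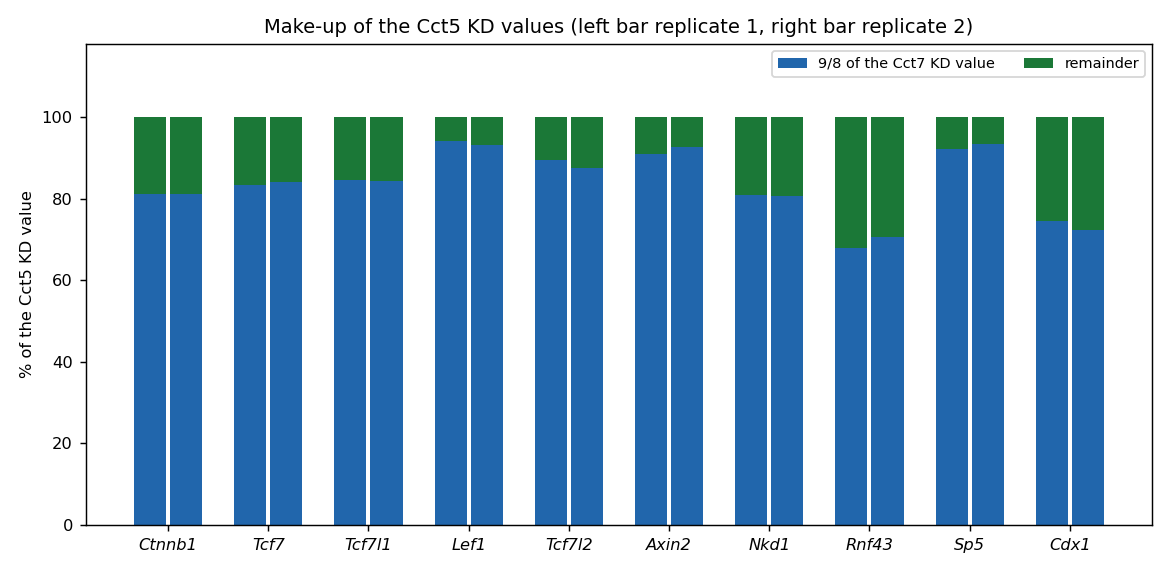
Share of each Cct5 KD value (vertical axis, %) that repeats Cct7 KD (9/8 of its value in the library with the matching number), and the remainder, for the 10 genes with 1 bar for each replicate. The repeated part is above 67% in every bar and above 93% for Lef1.

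In the remainder, set against the Cct5 KD Ctr libraries after median-of-ratios scaling, 84.9% of 11682 genes were called (42.1% higher, 42.8% lower). The scaled Lef1 level was 3.32 in both controls and 0.0857 and 0.0810 in the remainder (change -1.99, limma adjusted p = 7.2e-07). Tcf7 was 35.5 and 35.8 against 10.9 and 10.1 (-1.67), and Tcf7l1 was 7.91 and 8.14 against 2.54 and 2.52 (-1.35). Cdx1 was 0.0577 and 0.149 against 5.94 and 6.43 on the same scale (2.70, limma adjusted p = 4.6e-07), from 361 and 372 fragments in the remainder. The 3 factor genes were lower there too. Lef1 passed the filter only through the controls, which fixes its direction, and without the filter its change was also -1.99. Cdx1 passed the filter only through the remainder.

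Other genes differed between the remainder and Cct7 KD. Axin2, at 2.38 and 2.04 in the scaled controls, was 0.730 and 0.582 in the remainder (-0.95, limma adjusted p = 5.8e-05). It passed the filter only through the controls, which fixes its direction there. Without the filter its change was also -0.95 (limma adjusted p = 0.00030). Axin2 was not called in Cct7 KD, and the difference was not tested. Ctnnb1 was lower by a smaller amount (-0.33). Of the 6 genes tested, 1 was higher and 5 were lower, with the directions of Cdx1, Lef1 and Axin2 fixed by the filter. Without the filter, where 69.2% of genes were called (34% higher, 35.2% lower), Tcf7l2 was lower (-0.52) and Nkd1 higher (0.34, limma adjusted p = 0.0026). Sp5, with 7 fragments in each replicate of the remainder, was not called (0.08, limma adjusted p = 0.054), nor was Rnf43 (0.02, limma adjusted p = 0.74). The scaled level of Sp5 was 0.0959 and 0.101 in the remainder against 0.0534 and 0.0275 in the controls. At such levels the log2(FPKM + 1) scale understates a change. Of the Sp5 value in Cct5 KD, 92.1% and 93.5% lay in the part that repeats Cct7 KD.

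FPKM is scaled by length, so the 10 genes can be set in order. In Cct7 KD Ctr the mean fell from Ctnnb1 (186 ± 0.695 FPKM, SD, n = 2) through Tcf7 (60.3 ± 0.929), Tcf7l1 (12.1 ± 0.685), Lef1 (5.68 ± 0.140), Axin2 (3.72 ± 0.000784), Tcf7l2 (1.62 ± 0.160), Nkd1 (1.129 ± 0.278) and Rnf43 (0.864 ± 0.0112) to Cdx1 (0.227 ± 0.148) and Sp5 (0.125 ± 0.0258). Of neighbours in that order, Nkd1 and Rnf43 did not differ beyond their spread in means ± SD, nor did Cdx1 and Sp5, whose 2 values overlapped. In Cct7 KD, Cdx1 (9.47 ± 0.216 FPKM) moved up to between Tcf7 (30.0 ± 0.237) and Tcf7l1 (7.67 ± 0.138), while Lef1 (0.687 ± 0.102) lay beside Sp5 (0.713 ± 0.133) and did not differ from it beyond the spread.

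The other genes of the pathway are given from lists chosen with earlier results of these data known. The counts in Cct7 KD stand against 49.3% of all genes higher and 32% lower, and those after median-of-ratios scaling against 37.1% and 44%. Of 19 WNT ligand genes 3 passed the filter and were called higher, with and without scaling. Wnt7b went from a mean of 1.06 ± 0.0976 FPKM to 5.06 ± 0.206 (SD, n = 2 each, log2 change 1.56), Wnt8a from 0.282 and 0.221 to 2.54 and 2.52 (1.495), and Wnt9a from 0.606 and 0.723 to 3.13 and 2.95 (1.28). Wnt8a and Wnt9a passed the filter only through the knockdown, which fixes their direction, so the count says nothing of the ligands as a group. Wls, the carrier that brings WNT proteins to the cell surface, rose from 2.42 and 3.16 FPKM to 21.0 and 20.8 (2.54).

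Receptor genes moved in both directions: of 15 listed and 11 tested, 7 rose, 3 fell and 1 was not called, with a median of 0.38 against 0.15 for all genes. After scaling 6 were higher and 4 lower. Fzd7, a main Frizzled receptor of embryonic stem cells, fell from 41.1 and 40.5 FPKM to 7.69 and 7.66 (-2.27, SE 0.0339, limma adjusted p = 1.2e-06). Fzd5 fell from 28.7 and 28.5 to 7.70 and 7.54 (-1.78). Fzd6, a receptor linked to planar polarity signalling, rose from 2.39 and 2.19 to 11.2 and 11.7 (1.92). Fzd10 changed by -0.32 (-0.49 after scaling), a call lost without control replicate 1 (-0.25) or knockdown replicate 1 (-0.22).

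Of the 20 genes of WNT secretion and secreted modulators, 9 were tested, of which 5 rose and 4 fell (median 0.41), or 4 and 4 after scaling. Wif1 and Rspo1, among those higher, passed the filter only through the knockdown, and Sfrp4, among those lower, only through the control. Without Cct7 KD replicate 2, 3 rather than 5 were called higher. Sfrp1 and Sfrp4, secreted proteins that bind WNT ligands, fell by 2.33 and 1.76 on the log2 scale, Sfrp1 from 14.0 and 14.5 FPKM to 2.14 and 1.95. Of 8 R-spondin receptors and membrane regulators, 3 were tested: Lgr4, an R-spondin receptor, fell from 20.2 and 19.0 to 7.99 and 7.80 (-1.21), and Znrf3, the partner of Rnf43 in removing Frizzled, fell from 6.11 and 5.86 to 3.90 and 3.79 (-0.53). Kremen1, a co-receptor of DKK proteins, rose by 0.28, or 0.05 and not called after median-of-ratios scaling.

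Of 17 genes of the Dishevelled group and the destruction complex, 16 were tested, with 7 higher, 6 lower and 3 not called, and a median of 0.02. After median-of-ratios scaling 4 were higher and 11 lower, and without Cct7 KD replicate 1 4 were higher. Gsk3b, the kinase that marks beta-catenin, rose from 7.50 and 7.08 FPKM to 17.0 and 17.1 (0.89 after scaling). The casein kinase gene Csnk1e rose from 105 and 100.02 to 168 and 167 (0.70, and 0.45 after scaling). Csnk1d fell from 98.8 and 100.6 to 66.4 and 66.6 (-0.58, and -0.83 after scaling).

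Of the 13 nuclear partners, 11 were tested, with 5 higher, 4 lower and 2 not called, or 4 higher and 6 lower after scaling. The Groucho co-repressor genes Tle3 and Tle4 fell, Tle3 from 29.9 and 29.2 FPKM to 9.25 and 9.69 (-1.55) and Tle4 from 29.5 and 29.6 to 16.2 and 16.1 (-0.83). Bcl9, a co-activator that binds beta-catenin, rose from 68.3 and 68.1 to 90.4 and 90.2 (0.40, and 0.15 after scaling).

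Of 15 other target genes, 9 were tested, of which 3 rose, 5 fell and 1 was not called (median -0.24), the same counts as after scaling. Ccnd1 (cyclin D1) fell from 38.6 and 37.7 FPKM to 11.6 and 11.9 (-1.61). Cyp26a1, the enzyme that breaks down retinoic acid and itself one of its targets, rose from 0.125 and 0.144 to 21.5 and 20.6 (4.28), Cd44 from 0.479 and 0.527 to 5.09 and 4.73 (1.98) and Ephb2 from 1.43 and 1.39 to 3.54 and 3.74 (0.94). Cyp26a1 and Cd44, 2 of the 3 that rose, passed the filter only through the knockdown, and Bambi, among those that fell, only through the control.

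Of 5 genes that TCF7L1 represses in stem cells, 4 fell, with a median of -1.25 against 0.15 for all genes, in the libraries in which Tcf7l1 itself was lower. Nanog went from 299 and 300.2 FPKM to 70.4 and 67.2 (-2.11), Nr5a2 from 27.8 and 27.6 to 7.27 and 7.40 (-1.78) and Klf2 from 83.3 and 84.8 to 34.4 and 34.9 (-1.25). Tfcp2l1 was not called (0.02, limma adjusted p = 0.70), but after median-of-ratios scaling it was lower (-0.23, limma adjusted p = 0.0025), so that 5 of 5 were lower. Nanog and Esrrb of this list are also among the 7 stem cell markers, all of which fell. The part of TCF7L1 in these changes was not tested.

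Of 8 cadherin junction partners, with which beta-catenin forms its pool at the membrane, 7 were tested, 4 higher and 3 lower (median 0.26), or 3 and 3 after scaling. Those higher were Cdh2 (1.28), which passed the filter only through the knockdown, Vcl (0.61, and 0.37 after scaling), Ctnnd1 (0.47 and 0.28) and Ctnna1 (0.26, and 0.01 and not called after scaling). Cdh3 fell from 17.3 and 15.9 FPKM to 2.93 and 3.04 (-2.14), and Jup (plakoglobin, a close relative of beta-catenin) from 34.2 and 31.9 to 9.49 and 9.85 (-1.67). Cdh1 (E-cadherin) fell from 178 and 178 to 126 and 128 (-0.48, and -0.73 after scaling).

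**Figure D5:**
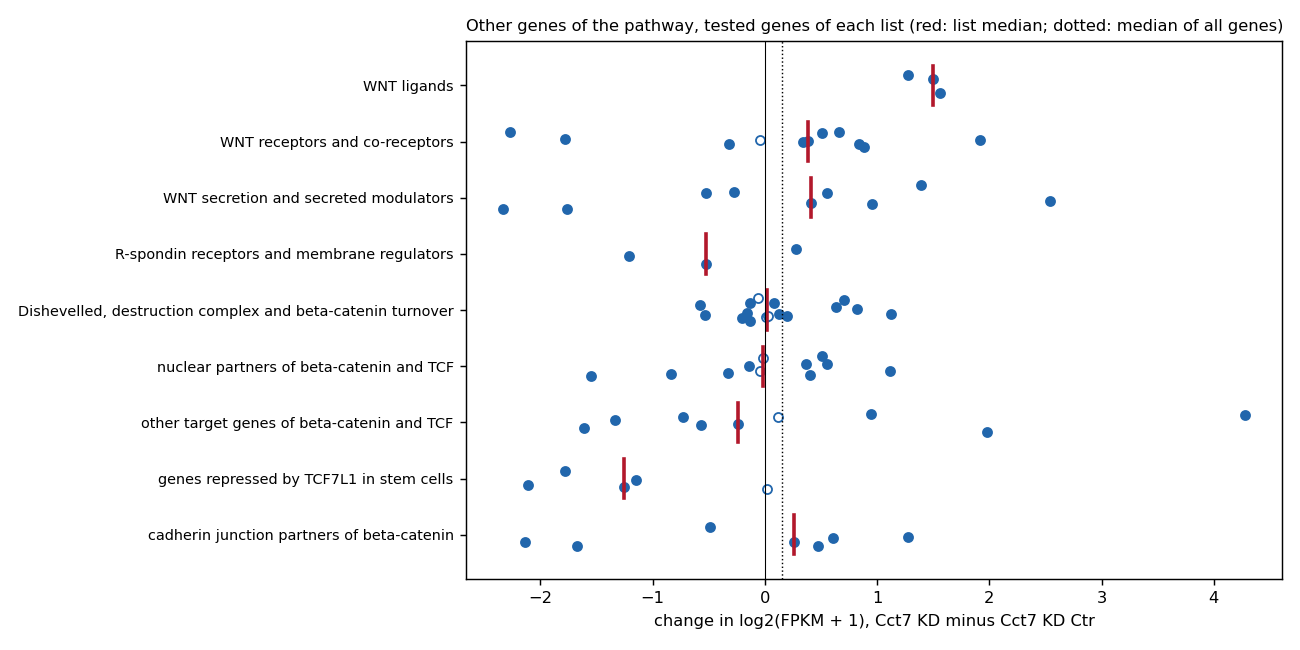
Change in log2(FPKM + 1) in Cct7 KD (horizontal axis) of the tested genes of 9 lists (filled points passed an adjusted p under 0.05, red lines are list medians, the dotted line is the median of all genes, 0.15). Most lists hold genes on both sides of 0, the 3 ligands, 2 of which passed the filter only through the knockdown, lie to the right, and 4 of the 5 genes repressed by TCF7L1 lie to the left.

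In Cct5 KD, with its shift of 0.68, 4 of 4 tested ligands, 8 of 13 receptors and 14 of 16 destruction complex genes were called higher, and 0, 2 and 2 lower, against 78% of all genes higher and 11.3% lower. After median-of-ratios scaling, 3 of 3 ligands, 6 of 12 receptors and 4 of 16 destruction complex genes were higher and 0, 5 and 9 lower, against 37.7% and 43.7% of all genes. The ligands (Wnt5b, Wnt7b, Wnt8a and Wnt9a) passed the filter only through the knockdown, and Wnt9a, the ligand tested in the remainder, only through the remainder, so their direction was fixed by the filter. Among the receptors called higher without scaling, Fzd1 (mean 0.159 FPKM in the control and 2.12 in Cct5 KD) also passed it only through the knockdown. In the remainder after median-of-ratios scaling the counts were 1 of 1 ligand higher, 4 of 11 receptors higher and 5 lower, and 5 of 15 destruction complex genes higher and 7 lower. Over all genes tested there, 42.1% were higher and 42.8% lower. Fzd7 (-1.47), Fzd5 (-1.76), Tle3 (-1.04), Tle4 (-1.90), Ccnd1 (-2.80), Nanog (-2.55), Jup (-2.23) and Cdh3 (-1.43) were lower in the remainder, each with a limma adjusted p of at most 2.1e-06. Cyp26a1 (3.25), Gsk3b (0.32) and Wls (0.35) were higher there, Cyp26a1 passing the filter only through the remainder. Fzd6 (-0.30) and Bcl9 (-0.24), higher in Cct7 KD, were lower in the remainder; the difference was not tested.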

How the data were processed

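Gene-level FPKM were deposited by the authors in 1 table per knockdown, made with HTSeq and the mm10 assembly per the submitters' processing notes; versions, aligner, annotation and gene lengths are not stated there. The tables held 21055 (Cct5) and 20909 (Cct7) entries; 8 and 6 IDs listed 2 times were dropped. Symbols came from GENCODE (41 IDs had none) and RefSeq synonyms.

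Depth came from genes with 1 transcript, as the step at which at least 95% of values between 0.5 and 20 fragments were whole within 0.05; 1 fragment on a 1 kb transcript equals 0.0183 to 0.0530 FPKM. The remainder is the Cct5 KD value less 9/8 (the most common ratio of the 2 values) of that of Cct7 KD. Replicates differed beyond sampling noise (chi-square per degree of freedom 1.28 to 3.66).

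Each knockdown was fitted with its own control, 4 libraries a fit, on log2(FPKM + 1) with limma 3.58.1 (eBayes with trend, two-sided) in R 4.3.3, with no block. Simulated data held 50 genes at each planted log2 change of 0.25, 0.5, 1 and 2, with all others unchanged. The planted changes were called in 10%, 46%, 82% and 94% (Cct7 KD design, 13588 genes). For the Cct5 KD design (14179 genes) the shares were 30%, 64%, 92% and 100%. False calls numbered 5 and 8. Most genes were called in the real data, so these rates do not carry over to the real fits.

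The 10 genes and all lists were chosen with earlier results of these data known. Beside the 10, each pathway list names up to 3 genes with the smallest adjusted p in Cct7 KD, both knockdown libraries lying on 1 side of both controls, plus exceptions to the list's direction when 3 or fewer. Tfcp2l1, Esrrb, Rarb, Wnt5b, Wif1, Rspo1, Bambi, Cdh2, Vcl, Ctnnd1, Ctnna1, Fzd1, Map2, Tubb3, Pdgfrb and Thy1 were named after their values were seen. Hprt and the markers Tfap2c, Eomes, Gata3, Gata6, Lama1 and Hand1 were likewise named outside that rule. Other settings were median-of-ratios scaling, a common FPKM total, no filter, a pseudocount of 0.1, a replicate block, all 8 libraries in 1 fit, each replicate left out, and the remainder. Combinations without the filter were chosen after seeing the data.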

Additional observations from a re-analysis of the deposited data

Results flagged for a closer look

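Rnf43 and Cdh1 lay above their controls in both Cct5 KD libraries and below their controls in both Cct7 KD libraries. For Rnf43 the ratio of mean FPKM, knockdown over control, was 1.30 in Cct5 KD and 0.612 in Cct7 KD, and for Cdh1 it was 1.21 and 0.713. The difference between the knockdowns was not tested, since each Cct5 KD value contains 9/8 of the Cct7 KD value. After median-of-ratios scaling Cdh1 was lower in Cct5 KD too (log2 change -0.55), and without the filter the scaled change of Rnf43 was -0.19 in Cct5 KD, not called (limma adjusted p = 0.056). In the remainder neither gene was called (limma adjusted p = 0.74 for Rnf43, without the filter, and 0.86 for Cdh1).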

How the results depend on the processing

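In Cct7 KD the counts of the 10 genes called (3 higher and 3 lower) stayed between 2 and 4 in each direction under every setting, and Tcf7, Tcf7l1, Lef1, Nkd1 and Cdx1 kept direction and call. With all libraries kept, the shares of all genes called ran from 33.9% to 52.6% higher and from 24.9% to 44% lower. With median-of-ratios scaling, with or without the filter, Ctnnb1 (-0.022), Axin2 (-0.081) and Tcf7l2 (-0.0945) turned negative and were not called. With a common FPKM total Axin2 was called (0.17). Leaving out 1 replicate gave Tcf7l2 -0.0046 (without Cct7 KD replicate 1) to 0.13. In Cct5 KD, 5 genes were higher and 3 lower (all genes 78% and 11.3%). The counts were 2 and 6 with median-of-ratios scaling (all genes 37.7% and 43.7%) and 3 and 6 with that scaling and no filter (33.4% and 34.1%). With a common total 3 were higher (all genes 50.4% higher and 31.8% lower). In the remainder the counts were 1 and 5 (all genes 42.1% and 42.8%), or 2 and 6 with no filter (34% and 35.2%). With or without the filter, Ctnnb1 was -0.14 with median-of-ratios scaling and -0.33 in the remainder, and Axin2 was -0.27 and -0.95. Tcf7l2 was -0.26 with that scaling and -0.52 in the remainder without the filter; with a common total Axin2 was -0.078 and Tcf7l2 -0.11. Cdh1 was -0.55 with median-of-ratios scaling, filter or not, and -0.31 with a common total; in the remainder, filter or not, Fzd6 was -0.30 and Bcl9 -0.24. Fzd10 in Cct5 KD, not called (-0.01), ranged from -0.10 to 0.082 with 1 replicate left out. The Tcf7l2 call in Cct5 KD (0.28) was lost without either control replicate (0.29 and 0.26) or without Cct5 KD replicate 1 (0.22). Counts within the 9 pathway lists moved by over 1.5 times in 13 cases in Cct7 KD (185 did not) and in 54 in Cct5 KD (180 did not). The cause of these changes was not tested.

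Labels give the groups the same replicate numbers, but same-numbered libraries did not deviate together (r = -0.04 in Cct7 KD and -0.01 in Cct5 KD, across genes). With a replicate block 10968 rather than 11055 genes were called in Cct7 KD and 12740 rather than 12662 in Cct5 KD, and no call among the 10 genes changed. Depth limits Sp5 and the control levels of Cdx1 most, at 2 to 13 fragments a control library.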
